A study of Mus musculus with 18 samples.

Results

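Collagen genes encode the chains of the triple-helical proteins that make up much of the extracellular matrix. They were taken as every row of the deposited count table whose symbol is Col, a number, the letter a and a number, which gave 37 genes of the 15730 in the table. A further 7 collagen genes (Col13a1, Col17a1, Col4a4, Col4a6, Col6a4, Col6a6 and Col9a1) appear only in the deposited FPKM table (fragments scaled by transcript length and library depth), where the highest value in any sample was 0.170 FPKM, and they were not tested. The RNA came from the L4 to L6 dorsal root ganglia of C57BL/6 mice aged 6-8 weeks, collected 24 hours after surgery. These ganglia hold the sensory neurons whose axons run in the sciatic nerve, with the glia, vessels and connective tissue around them.

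The 18 samples formed 6 groups of 3, and each sample pooled the sciatic ganglia of 2 mice. Injury of the dorsal column of the spinal cord (DCA) had laminectomy (LAM) as its control. Sciatic nerve injury with saline (SNA_Saline) had a sham operation with saline (Sham_Saline) as its control. The remaining groups were sciatic nerve injury with 30 mM N-acetylcysteine, an antioxidant (SNA_NAC), and a sham operation with 13 mM hydrogen peroxide (Sham_H202 in the sample titles). No group carried a genetic change. The replicate number of a sample is its sequencing lane. P-values measure the spread between the samples of a group, which are different pools of animals on different lanes. Differences between pools, libraries and lanes cannot be told apart in that spread.

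Collagen chains wind into a triple helix, and many types need chains from more than one gene. Fibrillar collagens form the fibres of connective tissue, type IV collagen forms the sheet of basement membranes, and beaded-filament (type VI) collagens link cells to the matrix around them. In peripheral nerve and ganglia, collagens are made mainly by fibroblasts, Schwann cells, satellite glia and cells of the vessel wall. In bulk tissue, fewer cells of a type and less RNA per cell cannot be told apart.

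The total count per sample ranged from 6472476 to 42435331, and collagen genes took 0.0743% to 0.115% of it. Sensory neuron markers (10 of 10 measured) summed to 10439 to 16380 CPM (counts scaled to library size) and Schwann cell markers (8 of 8) to 6389 to 10425 CPM, so the defining markers of the labelled ganglia were present in every library. Fibroblast markers (8 of 8) summed to 654 to 797 CPM in Sham_Saline, 771 to 898 in SNA_Saline, 832 to 931 in LAM and 609 to 1073 in Sham_H202. In the bone and cartilage list, the markers Bglap, Sp7 and Matn1 are not in the count table. The other 5 were each above 0 in every library and summed to 15.9965 to 30.4 CPM. One library stood apart: Sham_Saline replicate 2 had 1433 CPM of skeletal muscle markers, against 9.09 to 614 in the other libraries. It also had the steepest dependence of counts on the GC share of transcripts, a slope of 0.435 on the log2 scale per SD of GC share, where the other libraries ran from -0.221 to 0.251. By chi-square per degree of freedom between libraries of a group, Sham_Saline replicate 1 was farthest from the others. It was 113 from replicate 2 and 51.6 from replicate 3, beside 34.6 between replicates 2 and 3. Leaving out replicate 1 raised the share of all genes called, to 16.2% in SNA_Saline against Sham_Saline.

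Collagen levels were led by a chain known from peripheral glia. Between genes, levels are given as FPKM, which divides by length, as the mean over the 18 samples. Col28a1 (ENSMUSG00000068794), a collagen described at the surface of Schwann cells, had 17.6 FPKM. Col1a2 (ENSMUSG00000029661) and Col3a1 (ENSMUSG00000026043), fibre-forming chains of connective tissue, had 16.9 and 14.9 FPKM. Col4a1 (ENSMUSG00000031502), of the basement membrane, had 11.2 FPKM. Below these 4 came Col23a1 (a transmembrane collagen, ENSMUSG00000063564) at 8.09, Col1a1 (ENSMUSG00000001506) at 6.95, Col4a2 (ENSMUSG00000031503) at 6.01 and Col6a1 (ENSMUSG00000001119) at 4.90 FPKM. These 8 genes held 70.4% of the summed collagen FPKM. The ranges of neighbours overlapped: Col28a1 ran from 13.2 to 20.7 FPKM over the samples, Col1a2 from 13.4 to 22.96 and Col3a1 from 9.65 to 20.9. The order of the top genes also depended on the transcript length used. The length implied by the deposited FPKM was 2.30 times that of the longest GENCODE M21 transcript for Col1a2, where the median over all genes was 1.07. By the longest transcript Col1a2 ranked 1, Col3a1 ranked 2 and Col28a1 ranked 3.

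**Figure D1:**
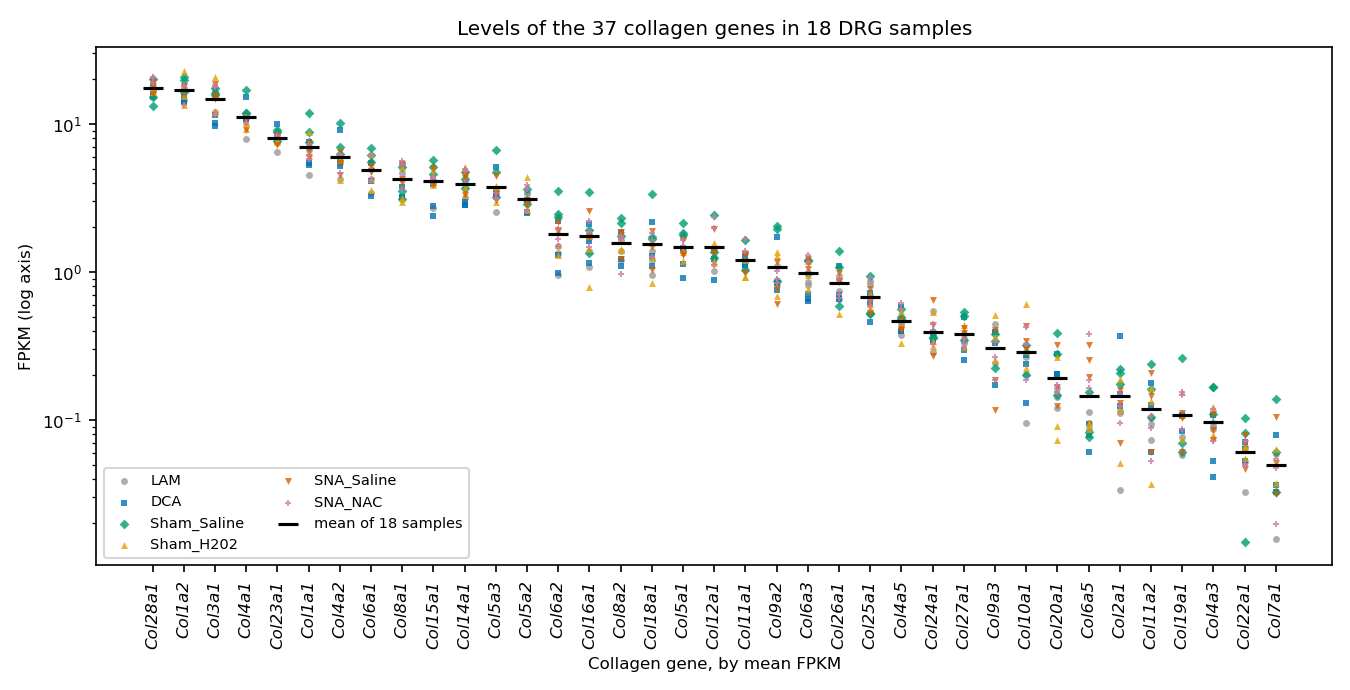
FPKM (log axis) of each of the 37 collagen genes in the 18 samples, coloured by group, with the mean over all samples as a bar; samples at 0 are not drawn (Col7a1 in Sham_H202 replicate 3). Levels fall from 17.6 FPKM (Col28a1) to 0.04999 FPKM (Col7a1), and 16 genes have a mean under 1 FPKM.

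By structure, the 11 fibrillar genes held 40.2% of the summed collagen FPKM and the 6 network-forming and other genes 20.04%. The 4 basement membrane genes held 14.4%, the 8 FACIT genes (collagens attached to the surface of fibres) 7.23%, the 2 transmembrane genes 7.14%, the 4 beaded-filament genes 6.38% and the 2 multiplexin genes 4.61%. With the length of the longest transcript, a scale chosen after the data were seen, the fibrillar share was 49.6%. Another 17 genes had a mean between 1 and 10 FPKM, and 16 lay under 1 FPKM and together held 4.29% of the sum. The genes under 1 FPKM included Col2a1, Col9a3, Col10a1 and Col11a2, chains best known from cartilage. The other low genes were Col4a3, Col4a5, Col6a3, Col6a5, Col7a1, Col19a1, Col20a1, Col22a1, Col24a1, Col25a1, Col26a1 and Col27a1. Between 1 and 10 FPKM and outside the leading 8 were Col5a1, Col5a2, Col5a3 and Col11a1 of the fibrillar class, Col6a2, Col8a1 and Col8a2, Col9a2, Col12a1, Col14a1 and Col16a1 of the FACIT class, and Col15a1 and Col18a1, the multiplexins of basement membrane zones. Summed over the 37 genes, the level was 115 ± 14.4 FPKM (SD, n = 3) in LAM, 111 ± 13.0 in DCA, 140 ± 10.9 in Sham_Saline, 119 ± 15.4 in Sham_H202, 124 ± 1.89 in SNA_Saline and 127 ± 10.5 in SNA_NAC. Sham_Saline had the highest sum and DCA the lowest. As a description, the median within-group SD of log2 CPM was 0.316 for collagen genes and 0.238 for all genes.

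Sciatic nerve injury against its sham asked what injury of the peripheral axon changes in the ganglion. No collagen gene passed an adjusted p of 0.05 in edgeR's quasi-likelihood test, while 2.73% of all genes did. At an unadjusted p under 0.05 there were 6 collagen genes, 16.2% of them, against 22.5% of all genes. Of these, 5 were lower after injury, against 12.3% of all genes, and 1 was higher, against 10.1%. DESeq2 called 1 collagen gene (Col6a5) and 5.49% of all genes, and limma on log2(FPKM + 1) called 0 collagen genes and 2.63% of all genes. Without Sham_Saline replicate 1 edgeR called 4 collagen genes (Col28a1, Col5a3, Col6a5 and Col9a2) and 16.2% of all genes. Fitted values were below 0 for 30 of 37 collagen genes, against 53.5% of all genes, with a median of -0.20 against -0.03. When offsets for GC and length were added that median was 0.05, so the direction of the group turned with this scaling. Without Sham_Saline replicate 2 it was -0.12.

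**Figure D2:**
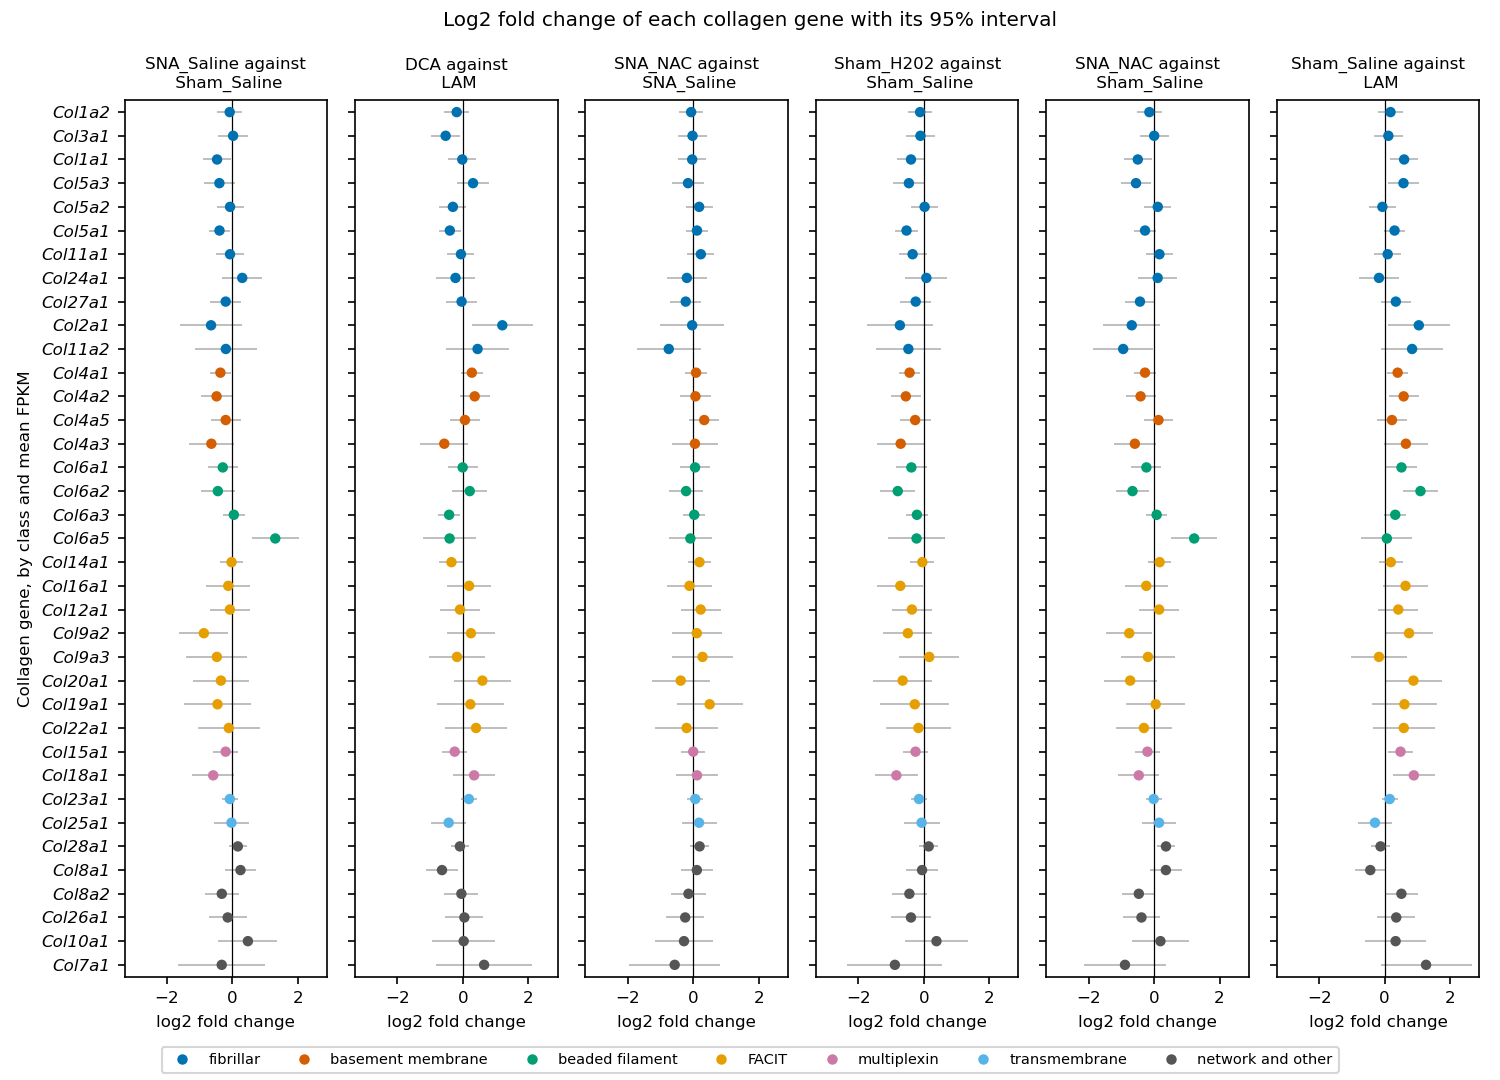
Log2 fold change (x axis) of each collagen gene (y axis, grouped by structural class and ordered by mean FPKM) in 6 comparisons, with 95% intervals from edgeR's fit of all 18 samples. No gene passes an adjusted p of 0.05; Col6a5 is the farthest point to the right in both comparisons of injured nerve with Sham_Saline, and the median of the 37 genes, -0.20 in the first panel, is 0.05 there with GC and length offsets.

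Col6a5 (ENSMUSG00000091345, chr9:105856070-105962463 in GRCm38.p6, RefSeq) encodes an alpha chain of type VI collagen, which forms beaded microfilaments near cell surfaces. It had the smallest p among the collagen genes in this comparison. Its level in CPM after TMM scaling was 1.24, 0.674 and 0.611 in Sham_Saline and 2.11, 1.62 and 2.57 in SNA_Saline. The lowest injured sample lay above the highest sham, which held for 10.3% of all genes. The log2 fold change was 1.31 (SE 0.34, 95% interval 0.59 to 2.04), a ratio of 2.49, with an edgeR adjusted p of 0.0511, just outside the threshold. In SNA_NAC the levels were 1.35, 1.56 and 3.11 CPM, again all above Sham_Saline, which held for 11.5% of all genes. The log2 fold change against Sham_Saline was 1.22 (SE 0.33, edgeR adjusted p 0.0518).

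In LAM, DCA and Sham_H202 the highest value of Col6a5 was 0.922 CPM: 0.725, 0.922 and 0.772 in LAM, 0.641, 0.768 and 0.484 in DCA, and 0.776, 0.679 and 0.795 in Sham_H202. All 6 samples with sciatic injury were above all 12 others, a separation of 1.35 (SNA_NAC replicate 1) from 1.24 CPM (Sham_Saline replicate 1). The share of all genes separated in this way was not counted, so how unusual it is cannot be said. The 2 comparisons with Sham_Saline share those control samples. DCA against LAM gave a log2 fold change of -0.40 (SE 0.39, edgeR adjusted p 0.660). The difference between the 2 injury effects was 1.72 (SE 0.52, edgeR adjusted p 0.0825), with an adjusted p of 0.0458 under GC and length offsets, 0.0610 under the offsets with the replicate block, and 0.0201 without Sham_Saline replicate 1.

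The call on Col6a5 turned with the setting. SNA_Saline against Sham_Saline passed with DESeq2 (adjusted p 0.0429), with upper-quartile scaling (0.0470), with GC and length offsets (log2 fold change 1.38, adjusted p 0.0115) and without Sham_Saline replicate 1 (log2 fold change 1.71, adjusted p 0.0157). SNA_NAC against Sham_Saline passed with DESeq2 (0.0420), with the offsets (0.0339), and without Sham_Saline replicate 1 (0.00636) or SNA_NAC replicate 1 (0.0300). SNA_Saline against Sham_Saline gave 0.279 in the fit of the 2 groups alone and 0.224 without Sham_Saline replicate 2, and SNA_NAC against Sham_Saline gave 0.261 and 0.271. Col6a5 was also a gene of low counts, from 5 to 75 reads a sample, and no exon of another gene overlaps it in GENCODE M21.

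**Figure D3:**
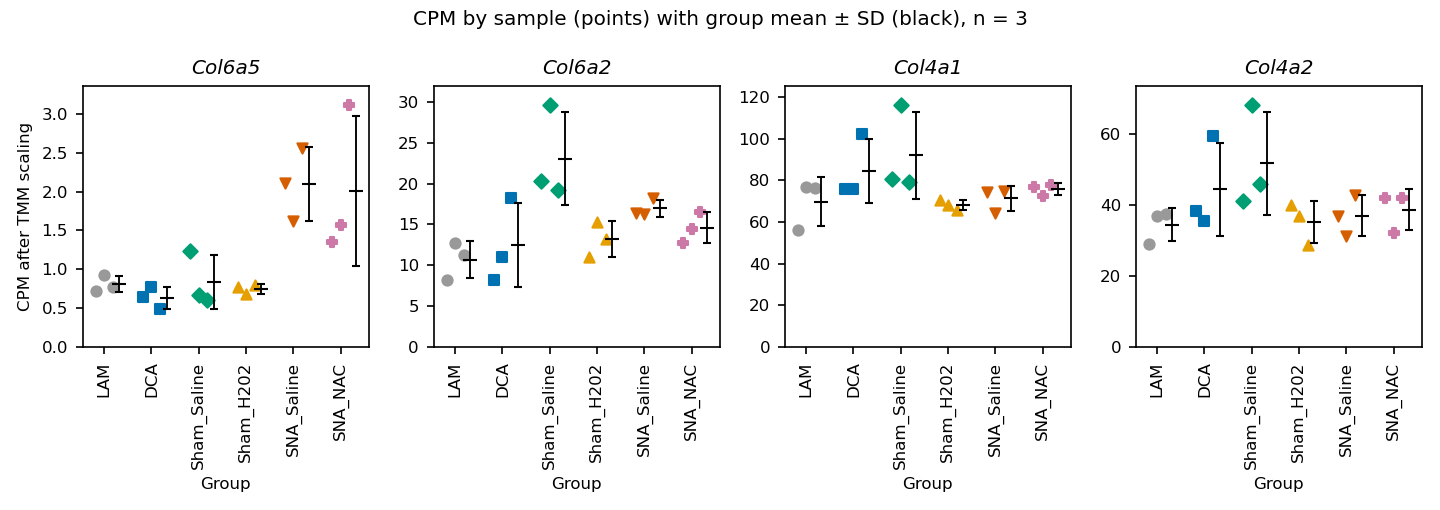
CPM after TMM scaling in each sample (points) of the 6 groups (x axis) for Col6a5, Col6a2, Col4a1 and Col4a2, with group mean and SD (n = 3) in black and y axes from 0. Col6a5 lies at 1.35 CPM or more in the 6 samples with sciatic injury and at 1.24 or less elsewhere, while Col6a2, Col4a1 and Col4a2 have their highest value in Sham_Saline replicate 2.

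The promoter window of Col6a5 is shown because this gene had the smallest p after sciatic injury. It spans 250 bases before to 50 after a RefSeq start site, chr9:105960594-105960893 on the minus strand (GRCm38.p6), with the single GC box (GGGCGG, searched on both strands) in capitals. This start site, at 105960643, lies inside the gene span given above, which ends at 105962463. It is not the outermost start of the gene, whose window was not examined. The TATA box (TATAAA), the CCAAT box (CCAAT), the AP-1 motif (TGANTCA) and the CRE motif (TGACGTCA) are not in these letters on either strand.

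Col6a5: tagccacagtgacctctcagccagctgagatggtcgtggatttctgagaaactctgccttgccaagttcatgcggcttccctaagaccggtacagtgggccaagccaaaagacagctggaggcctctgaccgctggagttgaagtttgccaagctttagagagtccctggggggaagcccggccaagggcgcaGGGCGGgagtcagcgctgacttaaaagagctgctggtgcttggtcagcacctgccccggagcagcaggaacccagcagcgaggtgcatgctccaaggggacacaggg

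Of the 30 RefSeq promoter windows found for 28 of the 37 genes, 66.7% held a GC box, against 35.7% of all 32851 windows. The CCAAT box occurred in 33.3% against 37.4%, the TATA box in 10% against 13.6%, the AP-1 motif in 3.33% against 7.81% and the CRE motif in 3.33% against 1.79%. The windows of collagen genes also had a higher GC share, a median of 60% against 52.7%.

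Among the other collagen genes after sciatic injury, the smallest p-values belonged to Col5a1 and Col9a2. Col5a1 (ENSMUSG00000026837), a chain of the minor fibrils that type I collagen assembles with, had 15.4, 18.3 and 14.9 CPM in Sham_Saline and 11.4, 11.7 and 13.97 in SNA_Saline. The groups did not overlap, and the log2 fold change was -0.39 (SE 0.16, edgeR adjusted p 0.177). Its exons overlap those of 2810430I11Rik and Gm13372 on the opposite strand, and whether the counting used strand is not given in the sources used here. Col9a2 (ENSMUSG00000028626), a FACIT chain, had 2.67, 6.36 and 5.90 CPM in Sham_Saline and 2.44, 1.95 and 3.64 in SNA_Saline, with overlap (log2 fold change -0.87, SE 0.35, edgeR adjusted p 0.179).

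Groups did not overlap for 7 of 37 collagen genes, against 19.1% of all genes. Of these, 6 were lower after injury (8.8% of all genes) and 1, Col6a5, was higher (10.3%). Col1a1, the main chain of type I collagen, had 49.2, 78.3 and 56.7 CPM in Sham_Saline and 44.2, 40.5 and 48.4 in SNA_Saline. Its 2 groups were separate by a narrow gap, and the log2 fold change was -0.47 (SE 0.20, edgeR adjusted p 0.198). Intervals lay wholly within 1 on the log2 scale for 25 of 37 genes.

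The genes that make, mature, break down and bind collagen gave a few calls in the same comparison. Mmp16 (ENSMUSG00000028226), a membrane-type matrix metalloproteinase, rose from 10.4, 5.22 and 5.02 CPM in Sham_Saline to 19.8, 21.9 and 15.6 in SNA_Saline. The groups did not overlap (log2 fold change 1.46, SE 0.23, edgeR adjusted p 0.00132). Timp1 (ENSMUSG00000001131), an inhibitor of metalloproteinases, rose from 5.29, 9.26 and 8.01 CPM to 18.1, 12.2 and 20.2 (log2 fold change 1.17, SE 0.29, edgeR adjusted p 0.0357). Itgb1 (ENSMUSG00000025809), the beta 1 chain of the collagen-binding integrins, rose from 474, 335 and 369 CPM to 590, 634 and 506 (log2 fold change 0.55, SE 0.13, edgeR adjusted p 0.0318). Sox9 (ENSMUSG00000000567), a transcription factor that drives cartilage collagen genes, rose from 1.57, 2.02 and 1.97 CPM to 4.49, 3.03 and 3.21 (log2 fold change 0.96, SE 0.23, edgeR adjusted p 0.0338). In all 4, the injured samples lay above the shams. Macrophage markers (7 of 7) summed to 53.0 to 58.2 CPM in Sham_Saline and 62.4 to 69.1 in SNA_Saline, and their part in these values was not tested.

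These calls were 2 of 13 measured degradation genes, 1 of 9 receptors and 1 of 14 regulators, all higher. They make 4 of the 85 measured genes of the 6 lists, 4.71% beside 2.73% of all genes, and no gene of these lists passed lower. None of the 22 biosynthesis genes, 12 maturation genes or 15 matrix partners passed, with 4, 3 and 3 at an unadjusted p under 0.05. Over the 6 lists 23.5% were at that level, beside 22.5% of all genes. The median log2 fold change was -0.09 for biosynthesis, -0.12 for maturation and 0.06 for matrix partners, beside -0.03 for all genes. In the lists with calls it was 0.18 for degradation, -0.10 for receptors and 0.22 for regulators. Fitted values were above 0 for 8 of 13 degradation genes, 3 of 9 receptors and 9 of 14 regulators. Each of the 4 calls was lost when only the 2 groups were fitted, with an adjusted p of 0.161 for Mmp16, 0.197 for Timp1, 0.304 for Itgb1 and 0.273 for Sox9. Timp1 was also lost with limma on log2(FPKM + 1) (0.0521) and on log2(FPKM + 0.1) (0.0637), and without Sham_Saline replicate 3 (0.0673), SNA_Saline replicate 1 (0.153) or SNA_Saline replicate 3 (0.0870). Itgb1 was lost without Sham_Saline replicate 2 (0.166), Sham_Saline replicate 3 (0.0849), SNA_Saline replicate 1 (0.141) or SNA_Saline replicate 2 (0.170), and Sox9 without the same 4 libraries (0.0736, 0.0571, 0.247 and 0.0584).

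Spinal dorsal column injury against laminectomy asked what injury of the central axon branch changes. No collagen gene passed an adjusted p of 0.05 in edgeR, as 0% of all genes did. DESeq2 called 0 collagen genes and 0.0127% of all genes, and limma on log2(FPKM + 1) called 0 and 0%. At an unadjusted p under 0.05 there were 5, 13.5% of the collagen genes against 5.04% of all genes. Of these, 4 were lower, against 1.69% of all genes. Fitted values were below 0 for 20 of 37 collagen genes, against 50.6% of all genes, with a median of -0.02, which was -0.18 with GC and length offsets. Col8a1 (ENSMUSG00000068196), a short network-forming chain of vessel walls, had 24.7, 28.0 and 28.1 CPM in LAM and 16.5, 19.6 and 16.1 in DCA. The groups did not overlap (log2 fold change -0.64, SE 0.23, edgeR adjusted p 0.624). Col3a1 had 104, 145 and 131 CPM in LAM and 81.5, 99.2 and 84.2 in DCA, also with no overlap (log2 fold change -0.53, SE 0.21, edgeR adjusted p 0.624).

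The other members at that level were Col6a3, Col5a1 and Col2a1. Col6a3 (ENSMUSG00000048126), the longest chain of type VI collagen, had 10.04, 11.8 and 10.4 CPM in LAM and 7.65, 8.71 and 7.82 in DCA, without overlap (log2 fold change -0.42, SE 0.16, edgeR adjusted p 0.624). Col5a1 had a log2 fold change of -0.40. Col2a1 (ENSMUSG00000022483), the main chain of cartilage collagen, was higher, with 0.207, 0.705 and 0.671 CPM in LAM and 2.22, 0.768 and 0.886 in DCA. Its log2 fold change was 1.21 (SE 0.44, edgeR adjusted p 0.624) on counts of 2 to 59 reads a sample, and the groups were separate by a narrow gap. Fibroblast markers summed to 832 to 931 CPM in LAM and 709 to 800 in DCA, also without overlap. The 5 measured bone and cartilage markers summed to 20.1 to 20.7 CPM in LAM and 21.7 to 29.4 in DCA, again without overlap. Of these 5, 4 had a fitted value above 0. The part of either list in the collagen values was not tested. Groups did not overlap for 6 of 37 collagen genes, against 21.7% of all genes.

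For the difference between the 2 injuries (sciatic injury against its sham, minus dorsal column injury against laminectomy) 0 of 37 collagen genes and 1.61% of all genes passed an adjusted p of 0.05 in edgeR. At an unadjusted p under 0.05 there were 8 collagen genes, 21.6% against 31.4% of all genes. DESeq2 called 0 of the 30 collagen genes it tested and 10.4% of all genes. With limma on log2(FPKM + 1), 0 collagen genes and 1.35% of all genes were called. Without Sham_Saline replicate 1 edgeR called 8 collagen genes and 29.2% of all genes. The difference was below 0 for 23 of 37, against 51.3% of all genes, with a median of -0.26, which was 0.23 with GC and length offsets. After Col6a5, the smallest p-values were those of Col2a1 (difference -1.86, SE 0.63, edgeR adjusted p 0.0901) and Col4a1 (difference -0.64, SE 0.22, edgeR adjusted p 0.0925). The difference of Col4a1 was 0.05 with GC and length offsets. Mmp16 passed (difference 1.54, SE 0.33, edgeR adjusted p 0.0295). That call on Mmp16 was lost in a fit of the 4 groups alone (0.0641) and without any of LAM replicates 1, 2 and 3 (0.0693, 0.0587 and 0.0811), DCA replicates 1 and 3 (0.0505 and 0.0969), Sham_Saline replicate 2 (0.0694) and SNA_Saline replicates 1 and 2 (0.0923 and 0.0827).

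N-acetylcysteine given with sciatic injury, against injury with saline, asked what an antioxidant changes. No collagen gene passed an adjusted p of 0.05 in edgeR, DESeq2 or limma on log2(FPKM + 1), as 0% of all genes did in edgeR. None had an unadjusted p under 0.05, against 2% of all genes. Col11a2 (ENSMUSG00000024330), a cartilage fibril chain, had the smallest p, with 1.45, 0.432 and 0.998 CPM in SNA_Saline and 0.616, 0.375 and 0.747 in SNA_NAC (log2 fold change -0.75, SE 0.47, edgeR adjusted p 1.00). Col4a5 (ENSMUSG00000031274), a basement membrane chain, and Col28a1 followed, at log2 fold changes of 0.34 (SE 0.21) and 0.19 (SE 0.13). Col6a5 gave -0.09 with a 95% interval of -0.75 to 0.57. Intervals lay within 1 on the log2 scale for 29 of 37 genes, the most of any comparison. Fitted values were above 0 for 19 of 37, against 49.4% of all genes, and the median was 0.03, or -0.10 with GC and length offsets. Groups did not overlap for 1 gene, Col27a1, a fibrillar collagen that was lower with N-acetylcysteine, against 14.9% of all genes in either direction and 5.63% lower.

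Hydrogen peroxide at a sham-operated nerve, against sham with saline, asked what an oxidant alone changes. No collagen gene passed an adjusted p of 0.05 in edgeR, DESeq2 or limma on log2(FPKM + 1), as 0% of all genes did in edgeR. At an unadjusted p under 0.05 there were 6, all lower, 16.2% of the collagen genes against 9.15% of all genes in either direction and 5.85% lower. The fitted value was below 0 for 32 of 37 collagen genes, against 52.5% of all genes, with a median of -0.34 against -0.02, and this median was -0.06 with GC and length offsets and -0.21 without Sham_Saline replicate 2. Col5a1 had 10.2, 11.3 and 12.4 CPM in Sham_H202 beside 15.4, 18.3 and 14.9 in Sham_Saline (log2 fold change -0.53, SE 0.16, edgeR adjusted p 0.449). Col6a2 (ENSMUSG00000020241), a short chain of type VI collagen, had 10.99, 15.3 and 13.2 CPM beside 20.4, 29.6 and 19.2 (log2 fold change -0.80, SE 0.25, edgeR adjusted p 0.449). Neither gene's groups overlapped, which held for 5 of 37 collagen genes, all lower, and for 5.43% of all genes in either direction and 3.27% lower. Col4a1 had 70.4, 68.4 and 65.8 CPM beside 80.8, 116 and 79.3 (log2 fold change -0.43, SE 0.16, edgeR adjusted p 0.449).

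Injury with N-acetylcysteine against sham with saline combined both factors. No collagen gene passed an adjusted p of 0.05 in edgeR, while 3.32% of all genes did. DESeq2 called 1 (Col6a5) of the 29 collagen genes it tested and 7.77% of all genes. With limma on log2(FPKM + 1), 0 collagen genes and 2.70% of all genes were called. At an unadjusted p under 0.05 there were 7 collagen genes, 18.9% against 27.6% of all genes. After Col6a5 came Col6a2, with 12.8, 14.5 and 16.5 CPM in SNA_NAC and no overlap with Sham_Saline (log2 fold change -0.66, SE 0.24, edgeR adjusted p 0.121), and Col28a1. Col28a1 had 97.8, 65.4 and 73.1 CPM in Sham_Saline and 103, 96.7 and 103 in SNA_NAC (log2 fold change 0.36, SE 0.13, edgeR adjusted p 0.121), and its groups overlapped. Groups did not overlap for 7 collagen genes, against 21.2% of all genes. Fitted values were below 0 for 24 of 37, against 51.6% of all genes. The median over the collagen genes was -0.24 beside -0.01 for all genes, and it was 0.01 with GC and length offsets and -0.07 without Sham_Saline replicate 2. Without Sham_Saline replicate 1 edgeR called 11 collagen genes and 37.3% of all genes.

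Of the 85 other collagen pathway genes measured, 5 passed in this comparison, 5.88% beside 3.32% of all genes. Mmp16 rose, with 20.1, 21.2 and 22.4 CPM in SNA_NAC (log2 fold change 1.62, SE 0.22, edgeR adjusted p 3.72e-04). Timp1 rose, with 16.9, 15.3 and 15.7 CPM (log2 fold change 1.09, SE 0.28, edgeR adjusted p 0.0440), as did Itgb1, with 562, 644 and 646 CPM (log2 fold change 0.65, SE 0.13, edgeR adjusted p 0.0104). Smad7 (ENSMUSG00000025880), an inhibitor of TGF-beta signalling, fell from 2.86, 3.96 and 3.87 CPM in Sham_Saline to 2.04, 1.44 and 1.99 (log2 fold change -0.94, SE 0.20, edgeR adjusted p 0.0143). Scx (ENSMUSG00000034161), a transcription factor of tendon cells that acts on fibrillar collagen genes, fell from 2.34, 6.57 and 4.41 CPM to 1.47, 0.876 and 0.954 (log2 fold change -1.96, SE 0.42, edgeR adjusted p 0.0149). Scx was highest in Sham_Saline replicate 2, the library with the most skeletal muscle marker RNA, and the part of that was not tested. Smad7 did not pass with GC and length offsets (adjusted p 0.0816), or with the offsets and replicate block (0.0727). Timp1 did not pass with limma on log2(FPKM + 1) (0.0652) or log2(FPKM + 0.1) (0.0787), with the block (0.0613) or with a minimum of 10 counts in every sample (0.0511).

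Single libraries decided several of these calls. Without Sham_Saline replicate 2, the adjusted p was 0.0862 for Smad7, 0.109 for Scx, 0.0694 for Itgb1 and 0.0585 for Timp1. Without SNA_NAC replicate 2 it was 0.0858 for Smad7, 0.0826 for Scx, 0.0580 for Itgb1 and 0.125 for Timp1. Without SNA_NAC replicate 3 it was 0.0867 for Scx, 0.0579 for Itgb1 and 0.126 for Timp1. Without Sham_Saline replicate 3 it was 0.0542 for Smad7, 0.0521 for Itgb1 and 0.0928 for Timp1, and without SNA_NAC replicate 1 it was 0.0979 for Timp1. Fitting the 2 groups alone gave 0.0704 for Mmp16, 0.109 for Timp1, 0.184 for Itgb1, 0.187 for Smad7 and 0.110 for Scx.

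Collagen genes were also compared between the 2 control operations. In Sham_Saline against LAM, 31 of 37 collagen genes had a fitted value above 0, against 52.3% of all genes, and the median was 0.40 against 0.02. With GC and length offsets the median was 0.01. No collagen gene passed an adjusted p of 0.05 in edgeR, while 0.0699% of all genes did. DESeq2 called 1 (Col6a2) of the 27 collagen genes it tested and 6.88% of all genes. With limma on log2(FPKM + 1), 0 collagen genes and 0.0318% of all genes were called. At an unadjusted p under 0.05 there were 11, all higher in Sham_Saline, 29.7% of the collagen genes against 30.3% of all genes in either direction and 19.8% higher.

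Col6a2 had the smallest p, with 8.18, 12.7 and 11.2 CPM in LAM and 20.4, 29.6 and 19.2 in Sham_Saline (log2 fold change 1.10, SE 0.25, edgeR adjusted p 0.104). Col1a1 had 30.6, 46.8 and 44.0 CPM in LAM beside 49.2, 78.3 and 56.7 (log2 fold change 0.60, SE 0.20, edgeR adjusted p 0.104). Col18a1 (ENSMUSG00000001435), the multiplexin that is the source of endostatin, had 6.94, 9.97 and 8.46 CPM beside 11.8, 23.7 and 11.9 (log2 fold change 0.89, SE 0.31, edgeR adjusted p 0.104). The groups were separate for all 3, and for 13 of 37 collagen genes, all higher, against 30.6% of all genes in either direction and 16.4% higher. Skeletal muscle markers summed to 53.8 to 377 CPM in LAM and 9.09 to 1433 in Sham_Saline, with overlap. Fibroblast markers summed to 832 to 931 CPM in LAM and 654 to 797 in Sham_Saline, lower without overlap, though 4 of 8 had a fitted value above 0. The 5 measured bone and cartilage markers summed to 20.1 to 20.7 CPM in LAM and 21.4 to 30.4 in Sham_Saline, higher without overlap. The part of these lists in the collagen values was not tested. Without Sham_Saline replicate 2 the median was 0.26 and 0 collagen genes were called. Without Sham_Saline replicate 1 the median was 0.34 and edgeR called 14 collagen genes and 31.8% of all genes.

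Fold changes of collagen genes varied with the GC share of their transcripts. The longest transcripts of the 37 genes had a median GC share of 55.7%, against 49.6% for all genes, and 31 of 37 lay above that value. Across the 37 genes, GC share and log2 fold change had a Pearson's r of -0.54 in SNA_Saline against Sham_Saline, -0.75 in SNA_NAC against Sham_Saline, -0.56 in Sham_H202 against Sham_Saline, 0.62 in Sham_Saline against LAM and 0.58 in DCA against LAM. Over all genes these were -0.53, -0.59, -0.60, 0.65 and 0.60. In SNA_NAC against SNA_Saline r was -0.48 across the collagen genes and -0.16 over all genes. These are descriptions across genes that share the same libraries. Col6a5 had a GC share of 49.7%, and its difference after sciatic injury was as large with the offsets (1.38 beside 1.31). Col1a1, Col4a1, Col4a2 and Col5a1 were below 0 in SNA_Saline against Sham_Saline without the offsets and at 0 to 0.06 with them.

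**Figure D4:**
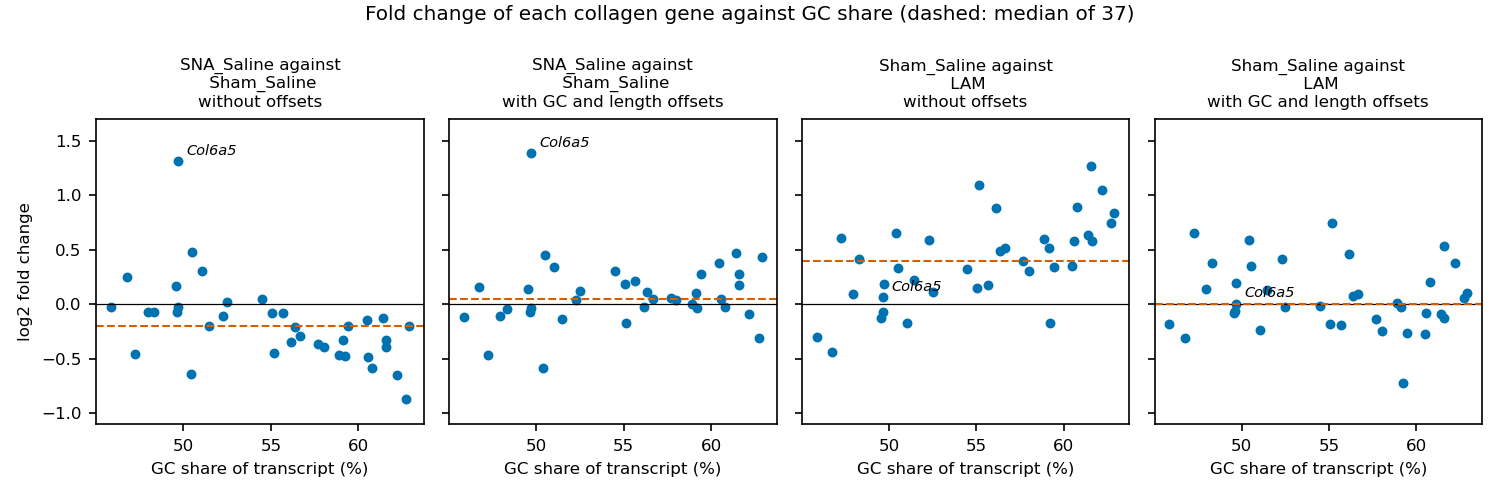
Log2 fold change (y axis) against the GC share of the longest transcript (x axis, percent) for the 37 collagen genes in SNA_Saline against Sham_Saline (left pair) and Sham_Saline against LAM (right pair), each without and with GC and length offsets; the dashed line is the median. The median moves from -0.20 to 0.05 and from 0.40 to 0.01, and Col6a5 stays at 1.31 and 1.38 in the left pair.

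Chains that assemble into the same molecule kept the steadiest ratio in type IV collagen. Over the 18 samples the SD of the log2 ratio of Col4a1 to Col4a2 was 0.132, smaller than the SD of either chain (0.230 and 0.317). The FPKM ratio had a median of 1.89, from 1.66 in Sham_Saline replicate 2 to 2.22 in Sham_H202 replicate 3, and its group means ran from 1.75 ± 0.136 (SD, n = 3) in Sham_Saline to 1.96 ± 0.0719 in LAM. For Col1a1 to Col1a2 the SD of the log2 ratio was 0.221, for Col6a1 to Col6a3 0.263, for Col6a1 to Col6a2 0.278 and for Col5a1 to Col5a2 0.287. It was widest for Col8a1 to Col8a2 at 0.426 and Col11a1 to Col11a2 at 0.706, and Col11a2 had few reads. The ratio was also steadier than either chain for Col1a1 to Col1a2 (chain SDs 0.310 and 0.228) and Col6a1 to Col6a3 (0.311 and 0.331). So it was for Col6a1 to Col6a2 (0.311 and 0.461), and not for the other pairs. These SDs are of log2 CPM, and 2 of these results turned with the scale. On log2(FPKM + 0.1) the Col1a1 to Col1a2 ratio had an SD of 0.218, above that of Col1a2 (0.217). On log2(FPKM + 1) the Col6a1 to Col6a3 ratio had an SD of 0.194, above that of Col6a3 (0.156). On log2(FPKM + 1) the Col11a1 to Col11a2 ratio had an SD of 0.164, below all pairs but Col4a1 to Col4a2 (0.106), and on log2(FPKM + 0.1) it had 0.461, so its place in this order turned with the scale. Type I collagen is built from more alpha 1 than alpha 2 chains, yet the ratio of the mean FPKM of Col1a1 to Col1a2 was 0.412, and 0.201 by the longest transcript.

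**Figure D5:**
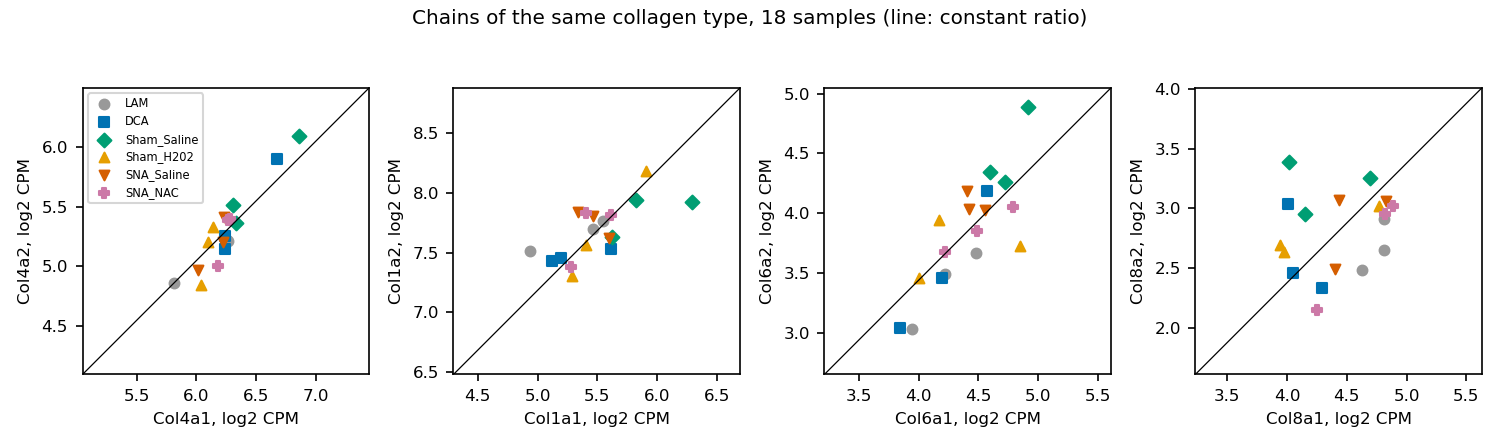
Log2 CPM of 2 chains of the same collagen type in each of the 18 samples, coloured by group; the line marks a constant ratio through the mean. Points for Col4a1 and Col4a2 lie closest to the line (SD of the log2 ratio 0.132), and those for Col8a1 and Col8a2 scatter most of the 4 pairs shown (0.426).

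Col4a1 and Col4a2 are shown with their promoter windows because they lie head to head. The window of Col4a1 is chr8:11312777-11313076 on the minus strand and that of Col4a2 is chr8:11312555-11312854 on the plus strand (GRCm38.p6, RefSeq), each 250 bases before to 50 after a start site. The span of Col4a1 reaches chr8:11312889, past the start site used here (11312826). The start sites are 21 bases apart, and the windows share 78 bases (chr8:11312777-11312854), in capitals below, which read as reverse complements of each other. The shared stretch is 73.1% GC and holds 1 GC box and no TATA box.

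Col4a1: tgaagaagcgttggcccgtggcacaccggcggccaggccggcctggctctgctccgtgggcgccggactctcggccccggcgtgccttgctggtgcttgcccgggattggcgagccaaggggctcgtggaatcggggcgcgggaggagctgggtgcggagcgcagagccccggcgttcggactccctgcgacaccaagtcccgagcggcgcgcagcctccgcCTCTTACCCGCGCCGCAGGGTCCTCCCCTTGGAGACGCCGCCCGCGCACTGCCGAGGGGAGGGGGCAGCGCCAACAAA

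Col4a2: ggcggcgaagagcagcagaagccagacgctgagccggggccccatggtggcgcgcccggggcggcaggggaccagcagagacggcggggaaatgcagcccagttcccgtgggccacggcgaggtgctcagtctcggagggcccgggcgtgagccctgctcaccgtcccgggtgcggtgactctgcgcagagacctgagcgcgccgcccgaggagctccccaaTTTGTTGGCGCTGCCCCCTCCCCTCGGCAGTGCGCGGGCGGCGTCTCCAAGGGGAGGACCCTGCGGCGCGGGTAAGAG

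Exons of the 2 genes overlap by 22 bases on opposite strands in GENCODE M21, and reads in that overlap cannot be assigned without strand. In CPM, Col4a1 had 56.1, 76.8 and 76.4 in LAM, 75.8, 75.7 and 102 in DCA, 80.8, 116 and 79.3 in Sham_Saline and 74.6, 64.5 and 75.1 in SNA_Saline. Col4a2 had 29.0, 36.97 and 37.3 in LAM, 38.2, 35.4 and 59.5 in DCA, 41.2, 68.0 and 45.7 in Sham_Saline and 36.8, 31.2 and 42.7 in SNA_Saline. Both genes were highest in Sham_Saline replicate 2 and next highest in DCA replicate 3, the libraries with the 2 steepest GC slopes (0.435 and 0.251), and the part of that in their common course was not tested.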

How the data were processed

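The authors deposited whole-number counts per gene for 15730 genes and FPKM values for 45904 features, each with 18 samples. Per the labels' protocols, a stranded mRNA kit was used, with single-end reads and 6 libraries on each of 3 lanes. The submitters' processing notes name TopHat2 2.0.12, Bowtie2 2.2.3, SAMtools 0.1.19, HTSeq 0.6.0, edgeR 3.8.6, limma 3.22.7 and the build mm10. Whether strand was used in counting is not given in the sources used here. The lowest mean count of any gene is 10.06.

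The counts of all genes were tested in edgeR 4.0.16 under R 4.3.3 (TMM, filterByExpr, which kept all genes, glmQLFit and glmQLFTest), in 1 fit of 18 samples without a block, for 7 contrasts. Benjamini-Hochberg adjustment ran over all genes, with a threshold of 0.05. CPM values are TMM-scaled, and the prior count for log2 CPM was 2. Alternatives were DESeq2 1.42.0, limma 3.58.1 on log2(FPKM + 1) and log2(FPKM + 0.1), upper-quartile scaling, no filter, at least 10 counts in every sample, the 2 or 4 groups of a contrast alone, a replicate block, an adjusted p under 0.10, offsets for GC share and length (natural splines with 5 degrees of freedom, 15648 genes) and leaving out each sample. Named genes are those past the threshold, the 8 highest in FPKM, the 3 smallest p per contrast and partner chains, with up to 4 passing genes of each other list. Col27a1 and Col5a3 fall outside this rule and were picked once their values were known. The members and lists were chosen with earlier results of these data known. Reads carry no molecular identifiers. Sequences are RefSeq's, and transcript lengths are from GENCODE M21.

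Same-numbered samples of Sham_Saline and LAM deviated together from their group means (r = 0.24, 0.42 and 0.27 in lanes 1, 2 and 3), above the limit of 0.1 in each lane. Deviations sum to 0 within a group, so the 3 values are not independent and cannot show that the number pairs samples. The replicate block called 0 collagen genes there too. In the other contrasts not every lane was over 0.1.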

Additional observations from a re-analysis of the deposited data

How the results depend on the processing

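Collagen genes called were 0 in every contrast with edgeR, when a contrast's groups were fitted alone, and in both limma fits. No filter repeated the main fit, since filterByExpr kept all genes. At least 10 counts in every sample also gave 0, but this tested only 27 of 37 collagen genes and left out Col6a5. The replicate block also called 0 in every contrast, with 6 collagen genes at an unadjusted p under 0.05 in SNA_Saline against Sham_Saline. Deviations of same-numbered samples had r = 0.095, -0.65 and -0.17 there in lanes 1, 2 and 3. These values are not independent and cannot show whether the numbers pair the samples in SNA_Saline against Sham_Saline. With the block Timp1 (adjusted p 0.0598) and Sox9 (0.0665) were no longer called there. In SNA_Saline against Sham_Saline the count was 1 with DESeq2 (5.49% of all genes), upper-quartile scaling (2.9%) and an adjusted p under 0.10 (5.23%). It was also 1 with GC and length offsets (7.55%) and the offsets with the replicate block (6.45%), and 0 to 4 when 1 library was left out. In SNA_NAC against Sham_Saline it was 1 with DESeq2 (7.77% of all genes), an adjusted p under 0.10 (8.19%), the offsets (7.75%) and the offsets with the block (7.04%). Leaving out 1 library there gave 0 to 11. In Sham_Saline against LAM the count was 1 with DESeq2 (6.88% of all genes) and 0 to 14 leaving out 1 library. For the difference between injuries it was 5 at an adjusted p under 0.10 (15.2% of all genes), 1 with the offsets (5.07% of all genes), 0 with the offsets and block, and 0 to 8 leaving out 1 library. The highest count of each range came without Sham_Saline replicate 1, where the percentage of all genes called rose also, to 16.2% in SNA_Saline against Sham_Saline.

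With the offsets 16 of 37 collagen genes changed sign in SNA_Saline against Sham_Saline, 12 in Sham_Saline against LAM and 13 in the difference. Among genes with an unadjusted p under 0.05 or 1 of the 3 smallest, the values that changed sign with the offsets, and with the offsets and block, are as follows. In SNA_Saline against Sham_Saline they were 4.35e-04 and 0.0097 for Col1a1, 0.055 and 0.058 for Col4a1, 0.053 and 0.049 for Col4a2, and 0.035 and 0.033 for Col5a1. In Sham_Saline against LAM they were -0.13 and -0.13 for Col4a1, -0.0815 and -0.0767 for Col4a2, and -0.13 and -0.13 for Col5a3. For the difference they were 0.0519 and 0.0513 for Col4a1, 0.0466 and 0.0470 for Col4a2, and 0.23 and 0.23 for Col5a3. The cause was not tested.

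Depth limits the genes with few reads: Col6a5 had 5 to 75 reads a sample and Col11a2 2 to 39. The 16 genes with a mean under 1 FPKM did not all have few reads, since Col6a3 among them had 72 to 512.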
